A study of Mus musculus with 22 samples.

Results

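The genes described here encode the ATPases and core subunits of the SWI/SNF (BAF) chromatin remodeling complexes of the mouse. They are 10 genes chosen by name among the 47311 genes with a paired transcript: Smarca4, Smarca2, Smarcb1, Smarcc1, Smarcc2, Smarcd1, Smarcd2, Smarcd3, Smarce1 and Actl6a. For each gene, the estimated counts and the TPM (a level corrected for transcript length and library size) of all its annotated transcripts were summed in each of 22 RNA-seq libraries. All 10 passed the filter on low counts in each comparison below.

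The libraries came from bone marrow cells of C57BL/6 mice, sorted as long-term hematopoietic stem cells (LT-HSCs), common myeloid progenitors (CMPs), granulocyte-macrophage progenitors (GMPs) and megakaryocyte-erythroid progenitors (MEPs). KO mice carried floxed Arid1a alleles (Arid1a f/f) and the Mx1-Cre transgene, whereas their WT littermates carried the same floxed alleles without Cre. Both genotypes received 5 doses of 300 µg of poly(I:C) at 8 to 14 weeks of age, and the cells were taken 4 weeks later. LT-HSCs came from 2 WT and 2 KO mice, and 3 WT and 3 KO mice gave each of the 3 precursor populations. Mx1-Cre is switched on by interferon in many tissues, so that its deletion of Arid1a was not limited to the sorted cells. LT-HSC libraries were made with a low-input kit and precursor libraries with another kit, and differences between LT-HSCs and precursors cannot be told apart from the kit. These were therefore given as values without a test.

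SWI/SNF complexes use the energy of ATP to slide or evict nucleosomes, which opens enhancers and promoters to transcription factors. Each complex holds a single ATPase, either SMARCA4 (BRG1) or its close relative SMARCA2 (BRM), built onto a scaffold of SMARCC1 and SMARCC2 with SMARCB1, SMARCE1 and a member of the SMARCD family. ACTL6A (BAF53A) is an actin-related protein bound to the ATPase in dividing progenitor cells. ARID1A is the large DNA-binding subunit of the BAF form of the complex. The comparison of KO with WT asks whether the RNA of the ATPases and of the core changed when that subunit was lost.

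The depth of the libraries, as estimated counts summed over genes, ranged from 40804031 to 65930737. The Arid1a level was lower in every KO library than in any WT library of its population. In LT-HSCs it was 119 and 111 CPM (counts scaled to library size with TMM factors) in the WT libraries and 50.9 and 53.6 CPM in the KO libraries (log2 difference -1.14, adjusted p = 0.421, not called). The log2 difference of KO from WT was -0.22 in CMPs, -0.40 in GMPs and -0.14 in MEPs, with adjusted p = 0.0284, 0.0246 and 0.0836 (edgeR quasi-likelihood test). A count over a whole gene includes exons outside the deleted part, so that it does not measure how many cells had lost the allele. Summed stem cell markers were highest in LT-HSCs (1528 to 1940 CPM), summed granulocyte-macrophage markers in GMPs (31170 to 47930 CPM) and summed megakaryocyte-erythroid markers in MEPs (3367 to 5636 CPM). Erythroblast markers, however, summed to 305 to 622 CPM in WT and 977 to 1011 CPM in KO LT-HSCs, against 37.0 to 127 CPM in WT MEPs. Mature neutrophil markers summed to 100 and 977 CPM in the WT LT-HSC libraries, against 43.1 to 115 CPM in WT GMPs. The source of these LT-HSC counts was not tested. WT LT-HSC S245 stood apart, with 27191 genes at 10 or more counts against 18504 to 22407 in the other LT-HSC libraries.

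The clearest WT pattern was that of Smarca2, whose TPM was highest in LT-HSCs and lower in CMPs, GMPs and MEPs in turn. The step from LT-HSCs to CMPs cannot be told apart from the change of kit and was not tested. Smarca2 (chromosome 19, 26605050 to 26778322, plus strand, GRCm38) was at 98.6 and 61.5 TPM in the WT LT-HSC libraries. It was at 45.8, 40.0 and 42.5 TPM in WT CMPs, at 26.9, 34.2 and 27.2 TPM in WT GMPs, and at 11.5, 8.42 and 10.6 TPM in WT MEPs. No library of a population overlapped with the next in this order. Between the precursor populations Smarca2 was 0.261-fold as high in MEPs as in CMPs, a log2 difference of -1.94 (SE 0.11, adjusted p = 2.33e-09, edgeR with mouse as a block), and 3.26-fold higher in GMPs than in MEPs (adjusted p = 5.91e-09). The difference between GMPs and CMPs was small, at -0.23 on the log2 scale (adjusted p = 0.0923), and was 0.0045 when only transcripts annotated as protein coding were counted. That call was also lost without mouse 300, 301, 308 or 309.

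Smarca4 (chromosome 9, 21616169 to 21704230, plus strand), the other ATPase, varied far less. Its level was 52.1 and 56.9 TPM in WT LT-HSCs, 86.5, 83.99 and 79.2 TPM in WT CMPs, 66.1, 73.8 and 61.5 TPM in WT GMPs, and 70.0, 74.0 and 67.2 TPM in WT MEPs. WT CMPs lay above the other populations on the TPM scale, and WT GMPs and WT MEPs overlapped. On the scale of TMM-scaled counts Smarca4 was lower in GMPs than in CMPs (log2 difference -0.15, adjusted p = 0.0183) and than in MEPs (-0.24, adjusted p = 0.000423). The first call was lost without mouse 300 or 309, and the second on log2(TPM + 1), where it was -0.071 (adjusted p = 0.248). MEPs did not differ from CMPs in that test (0.087, 95% interval -0.015 to 0.19), whereas the limma test on log2(TPM + 1) placed MEPs below CMPs, with a difference of -0.24 (adjusted p = 0.00151).

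Smarca2 held its smallest share of the ATPase pair in MEPs. Smarca2 held 65.4% and 51.9% of the summed TPM of Smarca4 and Smarca2 in the WT LT-HSC libraries. Its share was 34.0% ± 1.5 (SD, n = 3) in WT CMPs, 30.4% ± 1.4 in WT GMPs and 12.7% ± 2.1 in WT MEPs. The ranges of the 3 precursor populations did not overlap, and each pair reached the smallest p that 3 against 3 libraries allow in an exact two-sided permutation test (p = 0.1). Counted over protein-coding transcripts only, the WT means of the Smarca2 share were 37.7% in LT-HSCs, 20.7% in CMPs, 20.01% in GMPs and 6.51% in MEPs. The ranges of CMPs and GMPs overlapped in that count, and also as a share of estimated counts, so that these populations were separated on summed TPM only. The summed TPM of both ATPases was 134.6 in WT LT-HSCs, 126.0 in WT CMPs, 96.6 in WT GMPs and 80.6 in WT MEPs.

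**Figure D1:**
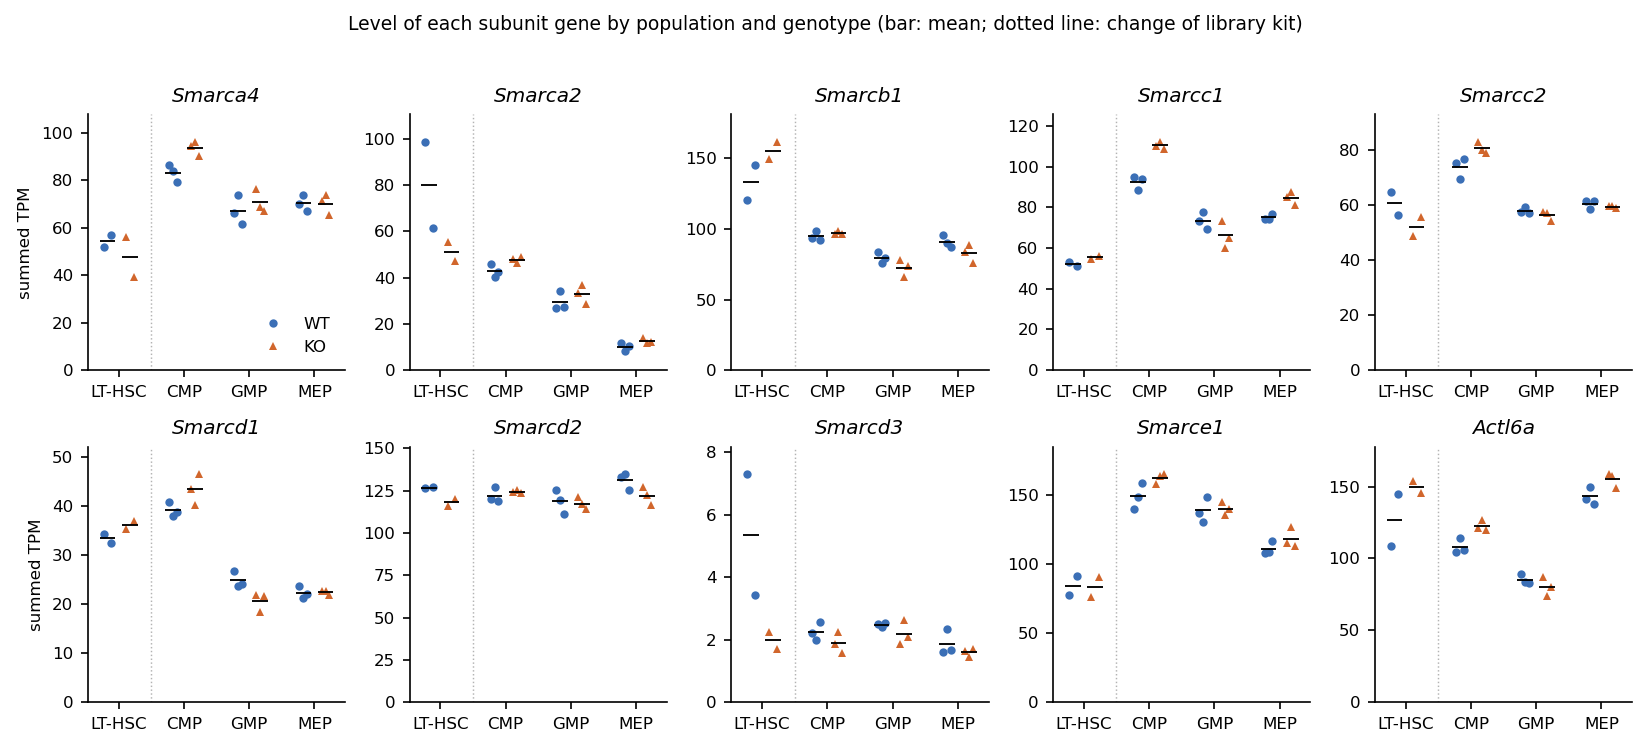
Summed TPM (y axis, linear, from 0) of each of the 10 genes in LT-HSCs, CMPs, GMPs and MEPs (x axis). Circles are WT libraries, triangles are KO libraries and bars are means, and the dotted line marks the change of library kit. Smarca2 was at 98.6 and 61.5 TPM in WT LT-HSC libraries, made with another kit, and at 8.42 to 11.5 TPM in WT MEPs. WT and KO points overlapped for 2 of the 10 genes in LT-HSCs, 5 in CMPs, 9 in GMPs and 8 in MEPs. In LT-HSCs, with 2 libraries per genotype, KO lay above WT for 4 genes and below for 4. KO lay above WT for 5 genes in CMPs and 2 in MEPs, and below for 1 in GMPs.

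The promoters of the ATPase pair are shown because their levels parted most between the populations. Both windows are from RefSeq on GRCm38.p6, 250 bases before to 50 bases after the annotated start, on the plus strand, at chr9:21615919-21616218 for Smarca4 and chr19:26604910-26605209 for Smarca2. Capitals mark matches, on either strand, to GATAA (GATA factors), GAGGAAG (PU.1), TGTGGT (RUNX factors), TTNNGNAA (C/EBP factors) or GGGCGG (GC box).
Smarca4: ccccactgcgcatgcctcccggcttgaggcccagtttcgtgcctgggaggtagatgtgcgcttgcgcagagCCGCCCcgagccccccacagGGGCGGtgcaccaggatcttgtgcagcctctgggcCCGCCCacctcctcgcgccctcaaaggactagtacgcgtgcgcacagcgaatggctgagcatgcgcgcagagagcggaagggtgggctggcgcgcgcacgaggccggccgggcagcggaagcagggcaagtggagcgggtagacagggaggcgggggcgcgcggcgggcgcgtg
Smarca2: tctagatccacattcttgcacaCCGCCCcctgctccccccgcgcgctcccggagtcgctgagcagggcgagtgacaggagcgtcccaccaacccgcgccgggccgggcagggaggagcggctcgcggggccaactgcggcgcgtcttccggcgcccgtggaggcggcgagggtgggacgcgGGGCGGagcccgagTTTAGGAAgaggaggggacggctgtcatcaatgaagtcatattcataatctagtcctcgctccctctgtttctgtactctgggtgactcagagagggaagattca
Both hold GC boxes, and the Smarca2 window also holds a C/EBP match that starts 55 bases before the RefSeq start. That RefSeq start lies within the first exon of the coding transcript Smarca2-201 (26605052 to 26605233). The C/EBP match and the GC box that starts 69 bases before the RefSeq start therefore lie in that exon. Neither window holds the letters searched for GATA, PU.1 or RUNX factors. Over all 32851 RefSeq promoters of the same length, 35.7% hold the GC box, 40.7% the C/EBP letters, 25.4% GATAA, 13.6% GAGGAAG and 16.8% TGTGGT. Of the 10 genes, 9 had a promoter in the table and each of those 9 held a GC box.

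Actl6a (chromosome 3, 32706298 to 32726973, plus strand) was highest in MEPs among the precursors, where Smarca2 was lowest. Its level was 105, 114 and 106 TPM in WT CMPs, 89.6, 83.6 and 83.0 TPM in WT GMPs, and 143 ± 6.2 TPM (SD, n = 3, lowest 138) in WT MEPs. The 3 precursor populations did not overlap. Actl6a was 1.66-fold higher in MEPs than in CMPs (log2 difference 0.73, SE 0.064, adjusted p = 1.9e-07) and 0.519-fold as high in GMPs as in MEPs (adjusted p = 1.18e-08). It was also lower in GMPs than in CMPs (-0.22, adjusted p = 0.0143), a call lost without mouse 305. The range of the WT LT-HSC libraries, 109 to 145 TPM, overlapped with those of the MEPs and the CMPs. Of 17 proliferation genes listed as a marker of dividing cells, 15 were also higher in WT MEPs than in WT CMPs and none lower, and the part of cell division in the Actl6a difference was not tested.

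The scaffold and core genes differed less. Smarcc1, whose product forms the scaffold with that of Smarcc2, was lower in WT GMPs (-0.22 on the log2 scale, adjusted p = 0.00278) and WT MEPs (-0.15, adjusted p = 0.0149) than in WT CMPs. The MEP difference of Smarcc1 was -0.0086 with an offset for transcript length (adjusted p = 0.911). Smarcc2 was lower in GMPs than in CMPs (-0.19, adjusted p = 0.00815) and than in MEPs (-0.22, adjusted p = 0.00152), the latter call being lost on log2(TPM + 1) (-0.059, adjusted p = 0.248). The share of Smarcc1 in the summed TPM of both scaffold genes was nearly the same in the WT precursors, with means of 55.6% in CMPs, 55.8% in GMPs and 55.4% in MEPs, and these ranges overlapped (exact permutation p from 0.4 to 0.7). In the WT LT-HSC libraries it was 44.9% and 47.5%.

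Smarcb1, which encodes the core subunit that contacts the nucleosome, was at 121 and 145 TPM in WT LT-HSCs, the highest mean of the 10 genes there. It was higher in MEPs than in CMPs on the scale of TMM-scaled counts (log2 difference 0.24, adjusted p = 0.00184), but its difference was -0.059 on log2(TPM + 1). Smarce1, the HMG-box subunit, was lower in MEPs than in CMPs (-0.11, adjusted p = 0.0608), a call lost without mouse 300 or 305. Summed over all transcripts Smarce1 had the highest mean TPM of the 10 genes in WT CMPs (149) and WT GMPs (139). Protein-coding transcripts gave 73.0 TPM in WT CMPs and 62.0 TPM in WT GMPs, ranks 7 and 6. Of the rest, the short processed transcript Smarce1-206, of 610 bases, held 47.4 and 45.6 TPM. Other transcripts not annotated as protein coding held the remainder.

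Within the SMARCD family, whose members link the complex to transcription factors, Smarcd1 was highest in CMPs. It was at 32.5 and 34.4 TPM in WT LT-HSCs, 40.9, 38.0 and 38.9 TPM in WT CMPs, 26.7, 23.6 and 24.2 TPM in WT GMPs and 23.6, 21.3 and 22.1 TPM in WT MEPs. The difference from CMPs was -0.50 on the log2 scale in GMPs (adjusted p = 2.27e-06) and in MEPs (adjusted p = 7.45e-07). Smarcd2 made up most of the family, with a share of 74.6% ± 1.3 in WT CMPs, 81.3% ± 0.74 in WT GMPs and 84.4% ± 0.59 in WT MEPs (SD, n = 3). Smarcd2 was higher in WT MEPs than in WT CMPs (log2 difference 0.33, adjusted p = 2.01e-05). Its GMP difference of 0.11 (adjusted p = 0.0838) turned to -0.040 on log2(TPM + 1), and leaving out 1 mouse at a time kept the call in 1 of 6 cases.

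Smarcd3, best known from heart and muscle, was the lowest of the 10 genes in each group, at 1.63 to 2.56 TPM in the WT precursor libraries and 7.30 and 3.43 TPM in the WT LT-HSC libraries. It passed the threshold in no comparison. Little of this was coding message. Protein-coding transcripts held 27.5% of the Smarcd3 counts in WT LT-HSCs, 3.93% in WT CMPs, 0.400% in WT GMPs and 0 in WT MEPs. The largest share in the precursors went to Smarcd3-205, a transcript with a retained intron, with means of 72.1% in WT CMPs, 63.8% in WT GMPs and 75.4% in WT MEPs. Of the exonic bases of Smarcd3, 48.2% are also exonic in other annotated genes, mainly Chpf2 on the other strand, and reads of the overlapping part cannot be told apart when the strand is not used. The same limit holds for 14.2% of the exonic bases of Smarcd1 (Gm17349 and Gm34939) and 11.6% of those of Actl6a (Mrpl47). Its part in their population differences was not tested.

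WT GMPs against WT CMPs gave 1 of the 10 genes higher and 6 lower, where 20.6% and 24.6% of all tested genes were called in these directions. WT MEPs against WT CMPs gave 3 higher and 4 lower, against 33.5% and 37.1% of all genes. WT GMPs against WT MEPs gave 1 higher and 5 lower, against 35.4% and 35.3%. Median log2 differences of the 10 genes were -0.17, 0.058 and -0.16, beside -0.022, -0.053 and 0.021 over all genes tested. On log2(TPM + 1) the median of all genes moved to -0.10 for GMPs against CMPs and to -0.15 for MEPs against CMPs. Small differences of Smarca4, Smarcb1 and Smarcc2 in MEPs and of Smarcd2 in GMPs, each against CMPs, had the opposite sign on that scale.

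**Figure D2:**
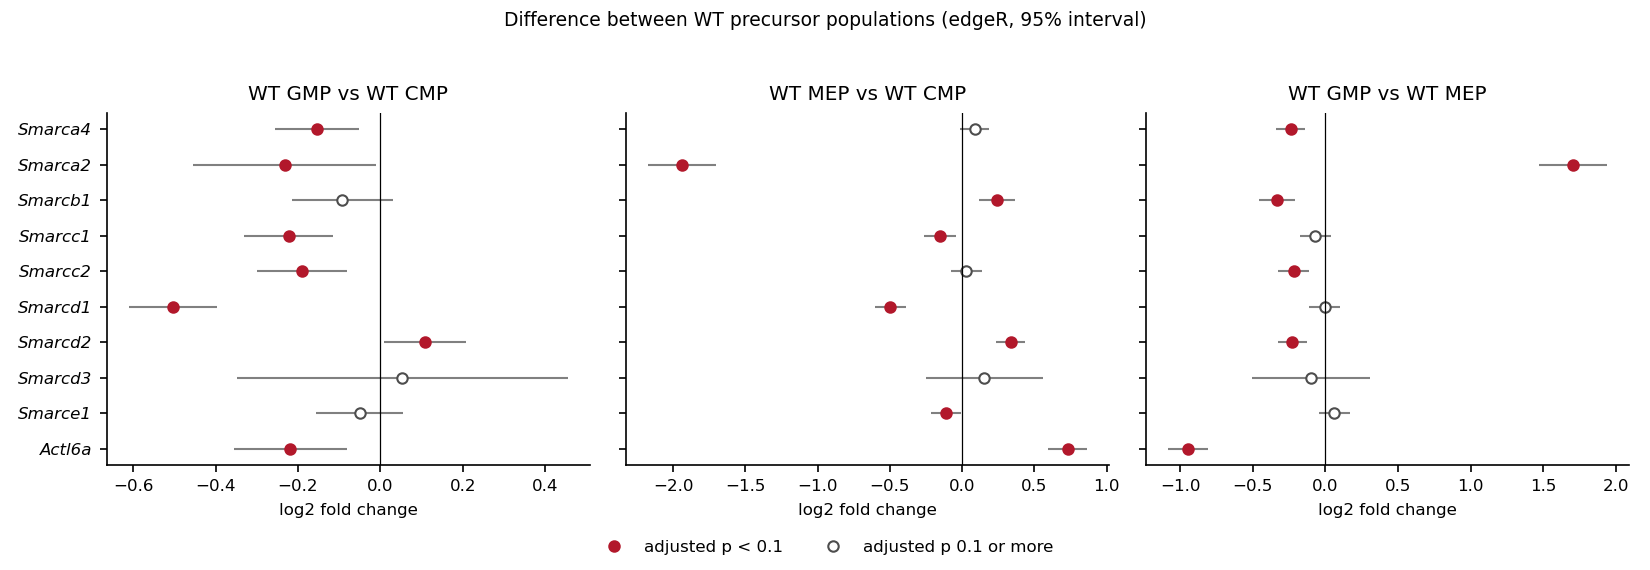
Log2 fold change (x axis, a separate range in each panel) of the 10 genes (rows) between WT precursor populations, from edgeR with mouse as a block. Points are estimates, lines are 95% intervals, and filled points passed an adjusted p of 0.1. Smarca2, at -1.94, and Actl6a, at 0.73, lay farthest from 0 in MEPs against CMPs, and Smarcd1 was farthest in GMPs against CMPs at -0.50.

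Loss of Arid1a was followed by few and small changes in these genes. Of 40 tests of KO against WT, 10 genes in 4 populations, 4 passed an adjusted p of 0.1. They were Smarca4 and Smarca2, both higher in KO GMPs, and Smarcc1, higher, and Smarcb1, lower, in KO MEPs. All 4 lay between 0.892-fold and 1.18-fold and came from the 30 tests in the precursors. There, 10.6% to 17.5% of all tested genes were called higher in KO and 12.8% to 16.3% lower. In LT-HSCs these shares were 0.0264% and 0.0528%.

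In KO GMPs both ATPase genes were higher. Smarca4 was at 248, 275 and 243 CPM in the WT GMP libraries and at 307, 303 and 289 CPM in the KO GMP libraries, and the groups did not overlap. The difference was 1.18-fold (log2 0.23, SE 0.066, adjusted p = 0.0273). Smarca2 was at 77.8, 84.3 and 71.0 CPM in WT and at 88.0, 101 and 85.0 CPM in KO, also without overlap, and differed 1.17-fold (log2 0.23, SE 0.086, adjusted p = 0.0806). The test called 2 of 10 genes higher and none lower in GMPs, beside 17.5% and 16.3% of all tested genes.

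Neither call held in all settings. On the TPM scale the KO and WT ranges overlapped for both genes, and the limma test on log2(TPM + 1) gave 0.077 for Smarca4 and 0.16 for Smarca2, with adjusted p = 0.558 and 0.397. In that test the median of all genes in KO GMPs against WT GMPs was -0.10, and Smarcd1 was called lower (-0.26, adjusted p = 0.0962), at 23.6 to 26.7 TPM in WT GMPs and 18.4 to 21.98 TPM in KO GMPs. Smarca2 also lost its call with an offset for transcript length (adjusted p = 0.106) and with protein-coding transcripts only (adjusted p = 0.19). Smarca4 lost its call without WT mouse 300, WT mouse 309 or KO mouse 301, and Smarca2 without any of these or KO mouse 304. Smarcd2, at 202, 199 and 188 CPM in WT and 217, 220 and 212 CPM in KO, had adjusted p = 0.102 and passed the threshold when mice were paired as a replicate block (log2 0.14, adjusted p = 0.0344). Summed granulocyte-macrophage markers rose from 31170 to 35350 CPM in WT GMPs to 42360 to 47930 CPM in KO GMPs, and summed mast cell and basophil markers were 515 to 890.4 CPM in WT and 108 to 149 CPM in KO. Of the 8 granulocyte-macrophage markers 6 were called higher and 1 lower, and all 5 mast cell and basophil markers lower. Of 17 proliferation genes, 7 were higher in KO GMPs and none lower. The part of these shifts in the ATPase differences was not tested.

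In KO MEPs, Smarcc1 was 1.11-fold higher (log2 0.15, SE 0.042, adjusted p = 0.0324), at 249, 245.5 and 258 CPM in WT and 277, 283 and 278 CPM in KO. Smarcb1 was 0.892-fold as high (log2 -0.17, SE 0.051, adjusted p = 0.0503), at 116, 110 and 110 CPM in WT and 101, 104 and 96.1 CPM in KO. Neither gene's groups overlapped. These were 1 gene higher and 1 lower of 10, beside 14% and 15.4% of all tested genes. Smarcc1 lost its call without KO mouse 301 or 304, and Smarcb1 without WT mouse 300, KO mouse 301 or KO mouse 308 and on log2(TPM + 1).

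Smarca2 had the largest point estimate in MEPs without passing the threshold. It was at 26.2, 19.4 and 25.5 CPM in WT MEPs and 28.8, 28.6 and 29.4 CPM in KO MEPs, so that the groups did not overlap. The difference was 1.22-fold (log2 0.29, 95% interval 0.034 to 0.54, adjusted p = 0.104), and it passed in 4 of 7 alternatives, among them protein-coding transcripts only (0.37, adjusted p = 0.0273) and the replicate block (0.30, adjusted p = 0.0524). The share of Smarca2 in the ATPase pair was 12.7% in WT and 15.2% in KO MEPs on summed TPM, and its ranges overlapped. As a share of estimated counts, the WT MEP libraries held 5.86% to 8.19% and the KO MEP libraries 8.69% to 9.38%, without overlap, and over protein-coding transcripts the groups did not overlap either. Summed erythroblast markers were 37.0 to 127 CPM in WT MEPs and 208 to 376 CPM in KO MEPs, with all 5 called higher, and of 17 proliferation genes 5 were higher and none lower. Summed stem cell markers were 89.0 to 94.2 CPM in WT MEPs and 149 to 156 CPM in KO MEPs, with 3 of 7 tested called higher. Summed megakaryocyte-erythroid markers were 4718 to 5636 CPM in WT and 3367 to 3807 CPM in KO, with 2 called higher and 2 lower. Their part in these differences was not tested.

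In CMPs none of the 10 genes passed the threshold, where 10.6% of all tested genes were higher and 12.8% lower in KO. At an unadjusted p under 0.05 there was 1, Smarcc1, and DESeq2 with a length offset called that gene alone. Smarcc1 was at 324, 317 and 328 CPM in WT CMPs and 344, 357 and 353 CPM in KO CMPs, a log2 difference of 0.12 (95% interval 0.011 to 0.23, adjusted p = 0.133). With the replicate block its adjusted p was 0.0644. On the TPM scale the gap was wider, with 94.98, 88.3 and 93.7 TPM in WT and 110, 112 and 109 TPM in KO, and the limma test on log2(TPM + 1) gave 0.26 (adjusted p = 0.0133). That test also called Smarca4 (0.17, adjusted p = 0.0762) and Actl6a (0.18, adjusted p = 0.0582) higher in KO CMPs, while the median of all genes was 0.072. In TPM all KO CMP libraries lay above the WT CMP libraries for 5 genes, Smarca4, Smarca2, Smarcc1, Smarcc2 and Actl6a. For the other 5 genes the groups overlapped. Summed granulocyte-macrophage markers were 4512 to 5680 CPM in WT CMPs and 1746 to 2743 CPM in KO CMPs, and summed erythroblast markers were 14.6 to 36.1 CPM and 164.5 to 257 CPM. Their part in the levels of the 10 genes was not tested.

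The intervals in the precursors are on the scale of TMM-scaled counts. For the 9 genes other than Smarcd3, the 95% intervals of KO against WT CMPs lay between 0.866-fold (Smarcd2) and 1.17-fold (Smarcc1). In TPM the ratio of KO to WT means of Smarcc1 was 1.20, outside that interval. In GMPs they lay between 0.818-fold (Smarcd1) and 1.34-fold (Smarca2), and in MEPs between 0.823-fold (Smarcb1) and 1.46-fold (Smarca2). Smarcd3, with 72 to 150 counts per precursor library, had wider intervals.

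**Figure D3:**
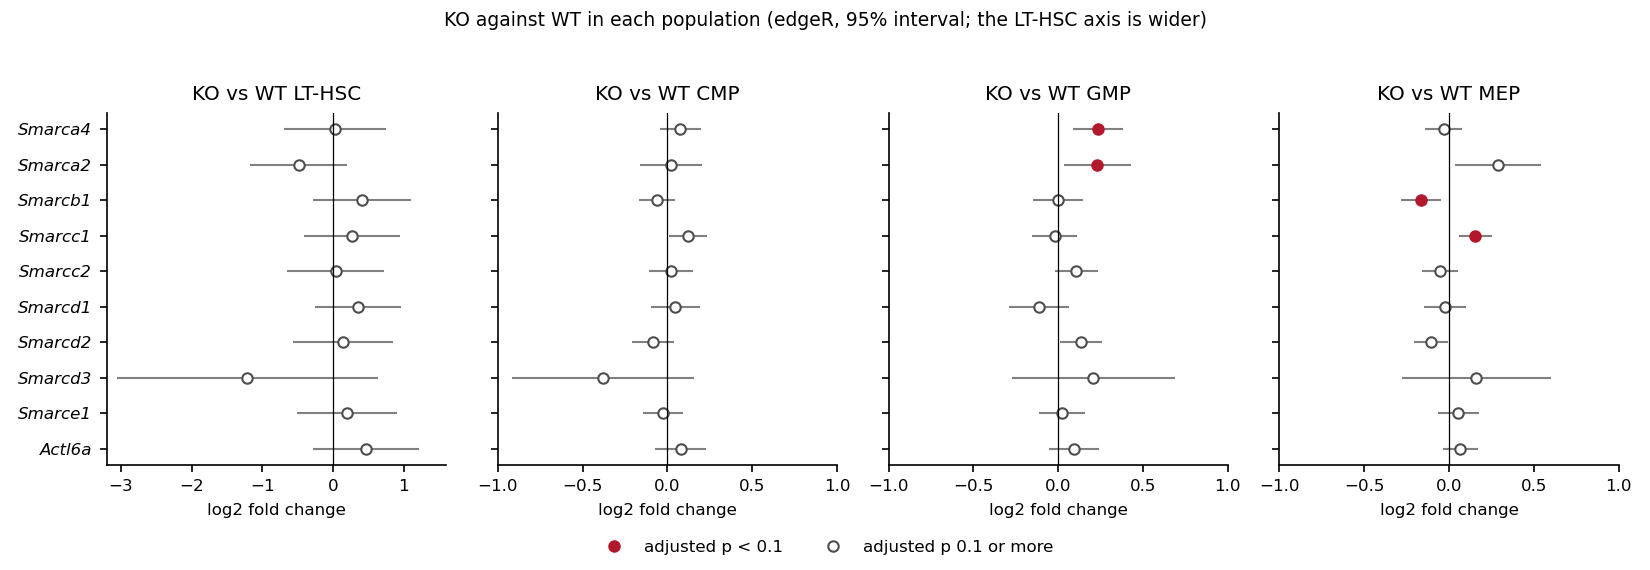
Log2 fold change of KO against WT (x axis) of the 10 genes (rows) in each population, from edgeR. Points are estimates, lines are 95% intervals and filled points passed an adjusted p of 0.1, and the x axis is wider for LT-HSCs, where each genotype had 2 libraries. The 4 filled points are Smarca4 (0.23) and Smarca2 (0.23) in GMPs and Smarcb1 (-0.17) and Smarcc1 (0.15) in MEPs.

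In LT-HSCs no gene of the 10 was called by edgeR, at an adjusted p of 0.1 or at an unadjusted p under 0.05, and DESeq2 with a length offset called none. Few genes at all were called there, with 0.0264% of all tested genes higher and 0.0528% lower. The intervals were wide, from 0.445-fold (Smarca2) to 2.33-fold (Actl6a) for the 9 genes other than Smarcd3. Smarca2 was at 295 and 253 CPM in the WT libraries and 204 and 189 CPM in the KO libraries, a log2 difference of -0.48 (SE 0.31, adjusted p = 0.876). Without WT library S245 it was -0.34 (adjusted p = 0.82). Without WT library S269, which leaves S245 as the only WT library and assumes that it varies like the KO libraries, Smarca2 (-0.62, adjusted p = 0.063), Smarcb1 (0.63, adjusted p = 0.0924) and Actl6a (0.91, adjusted p = 0.00658) were called. Actl6a was at 109 CPM in S245 and at 192, 207 and 210 CPM in the other LT-HSC libraries.

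Smarcd3 had the largest difference in LT-HSCs, at 4.61 and 4.66 CPM in WT and 2.03 and 1.97 CPM in KO, yet its interval reached from -3.06 to 0.64 on the log2 scale. The coding transcript that held Smarcd3 counts also differed, Smarcd3-201 with 24.7% and 30.1% in the WT libraries and Smarcd3-208, which starts upstream, with 22.5% and 58.9% in the KO libraries. Each was at 0 in the other genotype to the precision of the estimate. An exact two-sided permutation test of 2 against 2 libraries cannot give p below 0.3333, and splitting 96 to 233 counts between 9 transcripts is imprecise.

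The test of whether the KO effect differed between precursor populations found 3 differences in 2 genes. The effect on Smarca4 was larger in GMPs than in MEPs by 0.28 on the log2 scale (SE 0.066, adjusted p = 0.00873), being 0.23 in GMPs and -0.032 in MEPs. The effect on Smarcd2 was larger in GMPs than in CMPs by 0.23 (adjusted p = 0.0319) and than in MEPs by 0.25 (adjusted p = 0.0143), with single effects of 0.14 in GMPs, -0.083 in CMPs and -0.11 in MEPs. These were 1 of 10 genes for GMPs less CMPs, none for MEPs less CMPs, also by DESeq2 and at an unadjusted p under 0.05, and 2 of 10 for GMPs less MEPs. The shares of all tested genes were 21%, 13.1% and 26.8%. In the limma test on log2(TPM + 1) the Smarca4 difference was 0.084 (adjusted p = 0.45) and the Smarcd2 differences were -0.042 and 0.089. For GMPs less CMPs limma instead called Smarcc1 (-0.41, adjusted p = 0.0094), Smarcd1 (-0.40, adjusted p = 0.0058), Actl6a (-0.27, adjusted p = 0.0357) and Smarcc2 (-0.17, adjusted p = 0.0578). For GMPs less MEPs it called Smarcc1 (-0.32, adjusted p = 0.0288) and Smarcd1 (-0.26, adjusted p = 0.0389). Medians of all genes in that test were -0.17 and -0.11.

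Because a ratio within a library does not depend on the scaling between libraries, the paralog shares were compared as well. Smarcc1 held 55.0% to 56.0% of the SMARCC pair in WT CMPs and 57.1% to 58.3% in KO CMPs. In MEPs its share was 54.7% to 55.8% in WT and 57.8% to 59.4% in KO. These groups did not overlap, whereas in GMPs they did (54.8% to 56.7% in WT and 51.3% to 56.0% in KO). The share of Smarcd2 in its family was 80.6% to 82.1% in WT GMPs and 82.7% to 84.7% in KO GMPs, again without overlap, and 84.02% to 85.1% in WT MEPs and 83.1% to 83.9% in KO MEPs. In an exact two-sided permutation test each of these separated pairs gave p = 0.1, the smallest that 3 against 3 libraries allow, so that none could pass 0.05. As a share of estimated counts, only Smarcc1 in MEPs stayed apart, at 52.32% to 52.85% in WT and 55.2% to 57.07% in KO. The Smarcc1 groups then overlapped in CMPs (WT up to 56.82%, KO from 56.61%). Those of Smarcd2 overlapped in GMPs (WT up to 79.64%, KO from 79.63%) and in MEPs (WT from 80.17%, KO up to 80.24%). Over protein-coding transcripts all of these groups stayed apart.

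**Figure D4:**
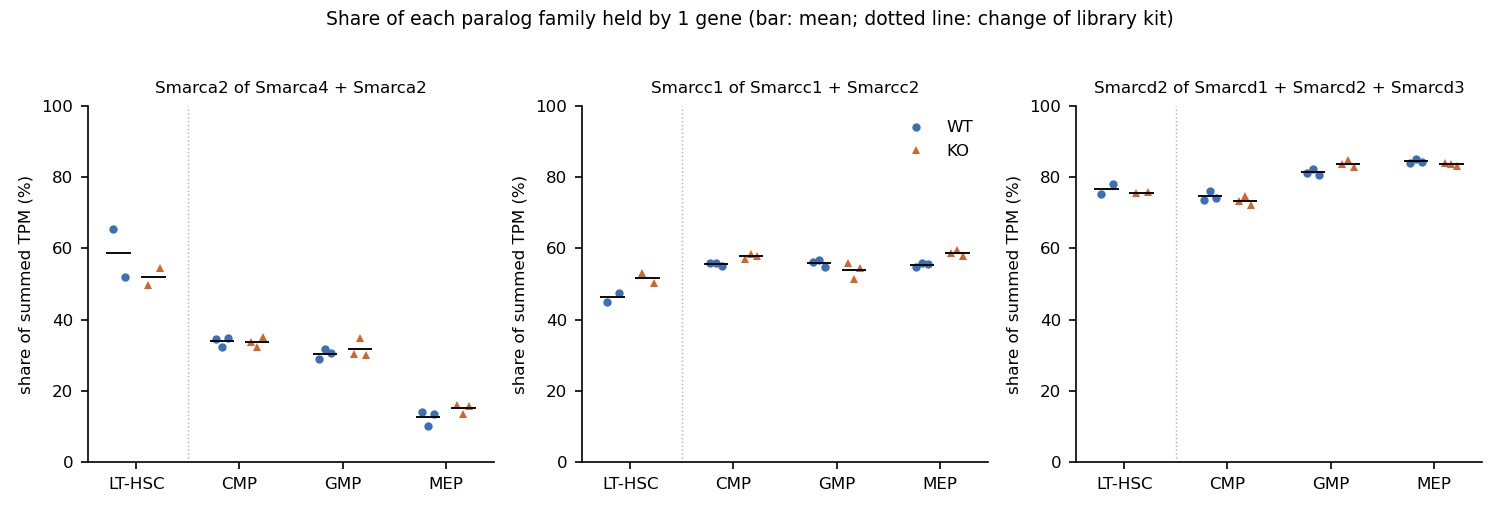
Share of the summed TPM of a paralog family (y axis, percent, 0 to 100) held by Smarca2, Smarcc1 and Smarcd2 in each population (x axis). Circles are WT libraries, triangles KO libraries and bars means, and the dotted line marks the change of library kit. The Smarca2 share was 65.4% and 51.9% in WT LT-HSC libraries, made with another kit, and had a mean of 12.7% in WT MEPs. WT and KO means of a precursor population differed by at most 3.28 percentage points.

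Several of the genes were also read from different transcripts in different populations. Smarca2-202, annotated as a target of nonsense-mediated decay, starts at position 26607270 of chromosome 19, downstream of the coding transcripts Smarca2-201 (26605052) and Smarca2-209 (26605119). It held 65.0% and 68.3% of the Smarca2 counts in WT LT-HSCs and 80.5% and 65.7% in KO LT-HSCs. In the WT precursors its means were 29.0% in CMPs, 23.4% in GMPs and 19.3% in MEPs, and every WT CMP library lay above all WT GMP and WT MEP libraries. Through this transcript the high Smarca2 level of LT-HSCs was less marked in coding message, at 42.1 and 25.2 TPM in the WT LT-HSC libraries against 20.2 to 23.6 TPM in WT CMPs.

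The estimated share of a Smarcd2 transcript with an internal start was higher in WT MEPs than in the other WT precursors. Smarcd2-201 starts at position 106272972 of chromosome 11 on the minus strand and Smarcd2-203 at 106267799. Smarcd2-203 held 8.94%, 12.0% and 10.7% of the Smarcd2 counts in WT CMPs, 10.1%, 10.4% and 10.2% in WT GMPs, and 19.6%, 26.3% and 29.7% in WT MEPs. The MEP libraries lay above all others among the WT precursors (exact two-sided permutation p = 0.1 against either population). In WT LT-HSCs the shares were 3.91% and 2.10%. KO MEPs, at 24.4%, 16.9% and 24.1%, overlapped with WT MEPs. The KO GMPs, at 14.9%, 11.3% and 10.39%, lay above the highest WT GMP library, at 10.36%, a margin of under 1 percentage point.
The promoter that RefSeq gives for Smarcd2 overlaps this internal start and is shown for that reason, at chr11:106267583-106267882 of GRCm38.p6 on the minus strand, with capitals as above. Its RefSeq start lies within the first exon of Smarcd2-203 (106267334 to 106267799), so that part of the window is exon of that transcript.
Smarcd2: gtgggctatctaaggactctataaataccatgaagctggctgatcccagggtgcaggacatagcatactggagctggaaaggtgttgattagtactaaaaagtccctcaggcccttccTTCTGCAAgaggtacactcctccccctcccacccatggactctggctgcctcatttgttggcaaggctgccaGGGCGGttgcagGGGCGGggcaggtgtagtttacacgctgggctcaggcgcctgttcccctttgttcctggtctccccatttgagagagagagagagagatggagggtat
It holds 2 GC boxes and a C/EBP match, and no match to the GATA, PU.1 or RUNX letters. Its 4 CpG dinucleotides stand beside 21 to 48 in the promoters of the other 8 genes, and beside a median of 7 over all promoters. The upstream start of Smarcd2-201, which held 69.6% of the counts in WT MEPs and 86.2% in WT GMPs, is not in that table.

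Smarcc1-204 differs from Smarcc1-201 at its end, with the last exon ending at 110235291 and not at 110240178 of chromosome 9. It held 17.98%, 11.4% and 16.7% of the Smarcc1 counts in WT CMPs and 28.6%, 32.1% and 26.0% in WT MEPs, without overlap. KO CMPs were at 19.6%, 19.3% and 17.8%, higher in the mean (18.9% against 15.4%) but overlapping. KO GMPs, at 21.7% to 23.3%, lay above WT GMPs, at 18.05% to 21.2% (exact permutation p = 0.1). Smarcc1-204 is 3538 bases long and Smarcc1-201 5717 bases, so that the same count gives a higher TPM when more of it goes to Smarcc1-204. Both WT LT-HSC libraries, at 48.9% and 54.6%, lay above all precursors.

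**Figure D5:**
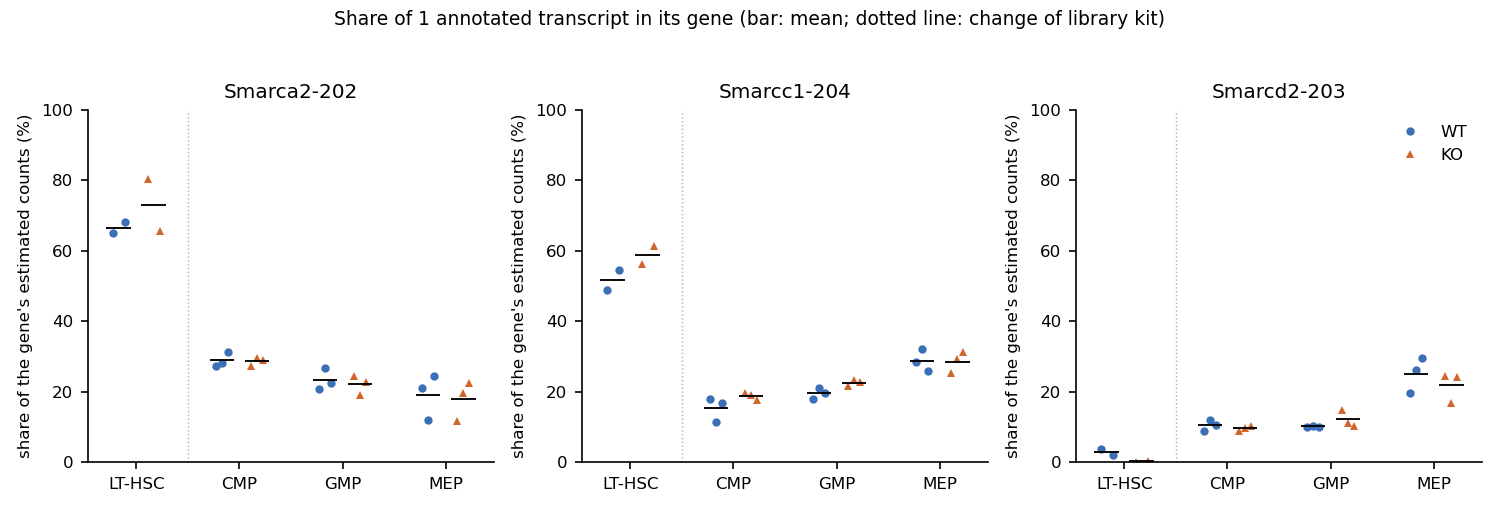
Share of a gene's estimated counts (y axis, percent, 0 to 100) that went to Smarca2-202, Smarcc1-204 and Smarcd2-203 in each population (x axis). Circles are WT libraries, triangles KO libraries and bars means, and the dotted line marks the change of library kit. Smarca2-202 held 65.0% or more in each LT-HSC library and at most 31.3% in each precursor library, and Smarcd2-203 was highest in MEPs.

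The other genes of the pathway were read from 2 lists. Of 21 further SWI/SNF subunits, Arid1a among them, 20 were tested in CMPs and GMPs and 21 in MEPs, where 2 were higher and 2 lower in KO CMPs, 2 higher and 4 lower in KO GMPs and 5 higher and 5 lower in KO MEPs. Of all tested genes, 10.6% were higher and 12.8% lower in KO CMPs, 17.5% and 16.3% in KO GMPs, and 14% and 15.4% in KO MEPs. None of the 21 was called in LT-HSCs. The 3 largest called changes in CMPs were Bcl11a, a transcription factor found with the complex (log2 0.39, adjusted p = 0.00141), Dpf2, the reader of acetylated histones in BAF (-0.33, adjusted p = 0.0032), and Phf10, its counterpart in the PBAF form (0.24, adjusted p = 0.0441). In GMPs they were Dpf3 (-1.53, adjusted p = 0.00337, at most 1.66 CPM), Actb, the actin subunit and a cytoskeletal gene (0.63, adjusted p = 0.000371), and Arid1a itself (-0.40, adjusted p = 0.0246). In MEPs they were Bcl11b (-1.79, adjusted p = 0.0264, at most 0.863 CPM), Dpf1 (1.19, adjusted p = 0.0114, at most 3.23 CPM) and Dpf3 (0.54, adjusted p = 0.0158).

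Of 22 ATPases of other remodeler families, 21 of which were tested in GMPs and MEPs, 6 were higher and 2 lower in KO CMPs, 1 higher and 3 lower in KO GMPs and 9 higher and 1 lower in KO MEPs. These stand beside the shares of all tested genes given for the first list, and none of the 22 was called in LT-HSCs. Chd3, an ATPase of the NuRD complex, was higher in KO CMPs (1.65-fold) and KO MEPs (2.26-fold) and lower in KO GMPs (0.616-fold), with adjusted p = 0.000608, 0.000347 and 0.00131. Chd7 was 2.29-fold higher in KO GMPs (adjusted p = 0.000864) and 1.62-fold in KO MEPs (adjusted p = 0.0161, at most 4.5 CPM in MEPs). It was also higher in KO CMPs (log2 0.61, adjusted p = 0.00759). Chd9 was 1.37-fold higher in KO MEPs (adjusted p = 0.0159) and also higher in KO CMPs (log2 0.29, adjusted p = 0.0242). Smarca1 in CMPs (log2 2.44, adjusted p = 0.00523) and Chd5 in CMPs (-1.13, adjusted p = 0.0654) and GMPs (-2.45, adjusted p = 0.00131) stayed at or under 1.08 CPM in each library. The median change of the 10 ATPase and core genes was 0.023 in CMPs, 0.10 in GMPs and 0.015 in MEPs, beside 0.065, -0.0098 and 0.11 for the other remodelers and -0.0027, -0.0056 and -0.0020 over all genes tested.

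Over the 18 precursor libraries, genes whose log2 CPM followed Smarca2 most closely were Kctd12 (Pearson r = 0.993) and Stat4 (0.992). For Smarca4 they were Bard1 (0.844), Gm340 (0.836) and Ttc39b (0.826). These are descriptions over 18523 genes, and the 18 points share 3 populations and 6 mice.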

How the data were processed

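Bone marrow populations were sorted and sequenced as RNA-seq. Per the labels and the methods, the authors ran kallisto 0.43.1 on Ensembl 84 mouse transcripts, and they deposited for each transcript an estimated count and a TPM (corrected for effective length). Kallisto and DESeq2 are named in the submitters' processing notes. Here 114200 of 115088 transcripts (99.23%) were paired with GENCODE vM21 (GRCm38) genes and summed. Rounded sums were tested with edgeR 4.0.16 (quasi-likelihood F-test, TMM, filterByExpr, Benjamini-Hochberg, threshold 0.1). Each KO vs WT comparison was fitted within its population, and WT populations and differences of KO effects in 1 fit of 18 precursor libraries with mouse as a block. Intervals are 95%. Those of KO against WT cover the fitted spread between mice, and those of the 18-library fit cover the spread left after the mouse block. Shares were compared by exact permutation.

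Alternatives were DESeq2 1.42.0 size factors, no filter, a length offset, DESeq2 with that offset, limma 3.58.1 on log2(TPM + 1) with a pseudocount of 1, protein-coding transcripts only, a replicate block and leaving out each mouse. The block pairs KO and WT mice by their order or numbering in the study's tables. Deviations from group means correlated within these pairs in CMPs (r = 0.223 to 0.398) and GMPs (0.321 to 0.377), but not in all pairs of MEPs (-0.0773 to 0.394). Whether counting used the strand is not given in the sources used here.

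The named genes are the 10 members in every comparison, Arid1a, the 3 largest called changes per KO vs WT comparison in 2 further lists, and the 3 genes most like each ATPase, 1 of which is not reported here. Members and lists were chosen with earlier results of these data known. Fits were tested on simulated data.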

Additional observations from a re-analysis of the deposited data

Results flagged for a closer look

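In 3 cases the KO effect on a gene differed between precursor populations by a test of the difference itself (edgeR, 18 libraries, mouse as a block). The KO effect on Smarca4 was larger in GMPs than in MEPs by 0.28 on the log2 scale, and in TMM-scaled CPM all 3 KO GMP libraries lay above the WT GMP libraries, while KO and WT MEPs overlapped. The KO effect on Smarcd2 was larger in GMPs than in CMPs by 0.23 and than in MEPs by 0.25. In TMM-scaled CPM the KO libraries of Smarcd2 lay above WT in GMPs and below WT in CMPs and MEPs. In TPM, KO and WT overlapped for Smarca4 in GMPs and MEPs and for Smarcd2 in all 3 populations, and with limma on log2(TPM + 1) none of the 3 differences was called (0.084 for Smarca4, -0.042 and 0.089 for Smarcd2). The Smarca4 difference and the Smarcd2 difference from MEPs remained called without any 1 of the 6 mice, whereas the Smarcd2 difference from CMPs was kept in 2 of 6 cases when 1 mouse at a time was removed.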

How the results depend on the processing

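Depth limited Smarcd3, with 72 to 150 counts per precursor library, and 2 mice per genotype gave wide intervals in LT-HSCs. Counts of the 10 genes called gave these ranges when 1 mouse was left out: KO against WT, 0 to 3 in LT-HSCs, 0 in CMPs, 0 to 2 in GMPs and 0 to 3 in MEPs. Between WT populations the ranges were 4 to 6 for GMPs against CMPs, 6 to 7 for MEPs against CMPs and 6 for GMPs against MEPs. For the differences of KO effects they were 0 to 2 for GMPs less CMPs, 0 for MEPs less CMPs and 2 to 3 for GMPs less MEPs. KO CMPs gave 1 call with DESeq2 and a length offset, 1 with protein-coding transcripts only, 1 with the replicate block and 3 with limma on log2(TPM + 1), against 0. KO GMPs gave 1 with a length offset, 1 with limma and 1 with protein-coding transcripts only, against 2, and 3 with the replicate block. KO MEPs gave 1 with limma, 2 with a length offset and 3 with each of the other 5 alternatives, the replicate block among them, against 2. GMPs less CMPs gave 2 with DESeq2 size factors, 2 with DESeq2 and a length offset, 4 with limma and 3 with protein-coding transcripts only, against 1, and GMPs less MEPs gave 5 with protein-coding transcripts only, against 2. The pairing of KO and WT mice behind the replicate block follows table order and not the labels.

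On log2(TPM + 1) 9 values that were called in either fit changed sign: -0.040 for Smarcd2 in WT GMPs against WT CMPs, -0.24 for Smarca4, -0.059 for Smarcb1 and -0.28 for Smarcc2 in WT MEPs against WT CMPs, 0.15 for Smarcd1 and 0.28 for Smarcd3 in WT GMPs against WT MEPs, and -0.17 for Smarcc2, -0.042 for Smarcd2 and -0.27 for Actl6a in GMPs less CMPs. On that scale the median of all genes was -0.10, -0.15 and 0.059 in the 3 WT comparisons and -0.17 in GMPs less CMPs. Smarca2 in WT GMPs against WT CMPs was 0.0045 with protein-coding transcripts only. The cause was not tested. Of the other values of the 10 genes, 1170 kept their side of the threshold, 45 passed it and 46 lost it. Of these, 87 that were called in neither fit changed sign, 22 of them on log2(TPM + 1). Of the paralog shares recomputed by counts, by protein-coding transcripts (chosen after seeing the data) or without a mouse, 88 moved by more than 1 SD and 178 by less. Of the transcript shares recomputed by TPM these were 127 and 41.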
